A study of Mus musculus with 6 samples.

Results

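The cyclins examined here are the 8 genes Ccnd1, Ccnd2, Ccnd3, Ccne1, Ccne2, Ccna2, Ccnb1 and Ccnb2, taken by name from 38926 genes counted in hematopoietic stem cells (HSCs) of the mouse fetal liver. RNA was sequenced from HSCs sorted from E14.5 embryos in 6 libraries, 1 control and 1 knockout from each of 3 litters. Control embryos were Vav-Cre; Dpy30F/+ and knockout embryos were Vav-Cre; Dpy30F/-, so both genotypes carried the Cre transgene and a floxed Dpy30 allele, and the controls were heterozygous wherever the floxed allele had been deleted. Vav-Cre is active in blood-forming cells, and Dpy30 encodes a core subunit of the complexes that methylate lysine 4 of histone H3. The number of embryos behind each library is not given in the sources used here.

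Cyclins are the regulatory subunits of the cyclin-dependent kinases (CDKs). D-type cyclins bind Cdk4 and Cdk6 in G1 and carry growth factor signals to the retinoblastoma protein, E-type cyclins bind Cdk2 at the G1/S boundary, cyclin A2 works in S phase and G2, and B-type cyclins bind Cdk1 at entry into mitosis. Fetal liver HSCs divide actively, unlike most adult HSCs, and mouse embryos without D-type cyclins fail to sustain blood formation.

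RefSeq promoter windows (GRCm38.p6) matched 4 of the 8 cyclins, with 2 start sites for Ccnd3. They are shown for their sequence only, and no link between their motifs and the cyclin levels was tested. Each runs 5′ to 3′ on the gene's strand from 250 bases before the start to 20 bases after it. Capitals mark CCAAT, the box bound by NF-Y, and TTTGAA or TTTAAA, forms of the cell cycle homology element of late cell cycle genes. The windows are chr13:100786467-100786736 (minus strand) for Ccnb1, chr9:70421535-70421804 (minus) for Ccnb2, chr7:38107471-38107740 (minus) for Ccne1, and chr17:47593217-47593486 (plus) for the downstream start of Ccnd3. The window of its upstream start, which held none of the capitalised motifs, is not shown.
Ccnb1: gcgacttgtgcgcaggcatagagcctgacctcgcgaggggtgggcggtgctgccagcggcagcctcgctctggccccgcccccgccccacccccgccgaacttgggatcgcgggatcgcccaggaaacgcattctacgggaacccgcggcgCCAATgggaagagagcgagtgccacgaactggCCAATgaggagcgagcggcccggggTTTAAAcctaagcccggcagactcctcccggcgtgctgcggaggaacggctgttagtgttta
Ccnb2: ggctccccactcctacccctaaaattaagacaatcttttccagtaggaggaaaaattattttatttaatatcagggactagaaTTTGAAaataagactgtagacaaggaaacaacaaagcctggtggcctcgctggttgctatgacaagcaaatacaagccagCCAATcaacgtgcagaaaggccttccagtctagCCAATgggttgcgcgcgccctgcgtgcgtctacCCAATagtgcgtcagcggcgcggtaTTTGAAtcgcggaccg
Ccne1: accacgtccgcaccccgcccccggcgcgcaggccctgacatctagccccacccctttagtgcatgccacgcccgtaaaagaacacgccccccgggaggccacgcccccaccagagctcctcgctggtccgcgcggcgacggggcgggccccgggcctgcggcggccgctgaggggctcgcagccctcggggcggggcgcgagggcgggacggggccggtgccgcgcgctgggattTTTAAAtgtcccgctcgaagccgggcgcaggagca
Ccnd3, downstream start: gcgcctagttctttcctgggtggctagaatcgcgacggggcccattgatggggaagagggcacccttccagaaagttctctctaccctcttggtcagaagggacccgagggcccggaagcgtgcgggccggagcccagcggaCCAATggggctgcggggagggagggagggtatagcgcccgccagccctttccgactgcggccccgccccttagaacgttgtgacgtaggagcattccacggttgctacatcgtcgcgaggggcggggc

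The Ccnb2 window held 3 CCAAT boxes, which began 87, 54 and 21 bases before the start, and TTTGAA at 167 bases before and 5 bases after it. The Ccnb1 window held 2 CCAAT boxes, 99 and 67 bases before the start, and TTTAAA 42 bases before it. Ccne1 had no CCAAT and held TTTAAA 15 bases before the start, and the downstream Ccnd3 window held 1 CCAAT. The core of a GC box, GGGCGG, had 4 copies in the Ccne1 window, 3 in that of Ccnb1, 2 in each Ccnd3 window and 0 in that of Ccnb2. Both strands were searched, and the palindrome TTTAAA was counted once. Among 32540 distinct windows of the same length, 35.4% held CCAAT, 10.7% held at least 2 and 3.04% at least 3, while 16.7% held TTTGAA, 12.5% TTTAAA and 34.4% GGGCGG. None of the E2F octamers TTTGGCGC, TTTCCCGC, TTTCGCGC and TTTGCCGC lay in the 5 windows. These matches describe the letters only.

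The libraries held 31897737 to 43394700 counts assigned to genes, of which mitochondrially encoded genes took 49.2% to 67.7%. Dpy30 had 712, 904 and 1395 counts across controls 1 to 3 and 315, 216 and 478 across knockouts 1 to 3, below every control (26.8 ± 4.196 and 9.18 ± 3.999 CPM, counts scaled by TMM library sizes; SD, n = 3 each). All 16 HSC markers listed for the check of the label were detected and tested. Their summed level was 815 to 851 CPM in the controls and 1005, 1165 and 368 across knockouts 1 to 3. The 11 erythroid markers summed to 1390, 2495 and 2476 CPM across controls 1 to 3. In knockouts 1 to 3 they summed to 1062, 1233 and 3023 CPM. This erythroid sum was above the HSC sum in every library, so the libraries also held RNA of erythroid genes. Nothing in the sources used here says how cultures or animals were pooled, so p-values measure the spread between these samples.

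All 8 cyclins passed the filter on low counts. In edgeR's quasi-likelihood test across 13646 genes, 0 of the 8 had an adjusted p under 0.05, and neither had any other gene (0% of genes called, with 888 at an unadjusted p under 0.05). DESeq2 called 138 genes, or 1.01%, and again 0 of the 8 cyclins. Neither method called Dpy30, the targeted gene, although all its knockout values were below the controls. Its adjusted p was 0.672 in edgeR, with an estimate of -1.55 on the log2 scale, and 0.131 in DESeq2. The lack of calls among the cyclins therefore does not show that their levels were unchanged. The adjusted p of the cyclins was 0.729 to 0.963 in edgeR and 0.310 to 0.989 in DESeq2. At an unadjusted p under 0.05, edgeR had 1 of 8 higher in the knockout (Ccnd2, against 4.26% of all genes) and 0 of 8 lower (against 2.24%). In TMM-scaled CPM, for no cyclin did the knockout libraries all lie above the controls, where 6.39% of all genes did, or all below, where 7.74% did. On that scale the genotypes therefore overlap for every member. The TMM factors were 0.747 for control 1 and 1.249 for knockout 1, against 0.990 to 1.053 in the other libraries. With scaling by size only, edgeR's unadjusted p was 0.00867 for Ccnd2 and 0.0318 for Ccnd3 (adjusted p = 0.595 and 0.669). In that fit 825 of the 13646 genes were higher at an unadjusted p under 0.05. The 3 D-type cyclins had positive fold changes and the 5 others negative ones, none of which passed the test.

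**Figure D1:**
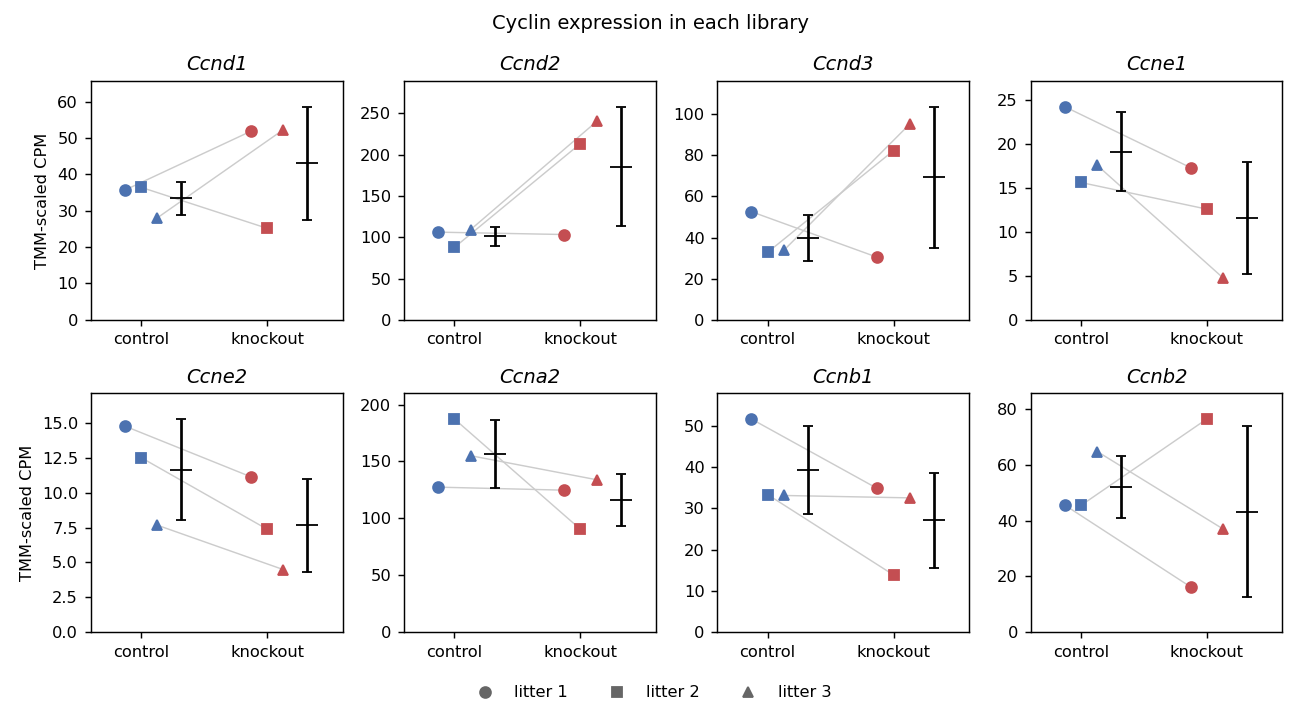
Expression of each cyclin in TMM-scaled CPM (vertical axes from 0) in 3 control (blue) and 3 knockout (red) libraries. Symbols give the litter, grey lines join its libraries, and black bars give mean ± SD. The knockout of litter 1 lies apart from the other knockouts for Ccnd2, Ccnd3 and Ccnb2, and no panel separates the genotypes.

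Among the D-type cyclins, Ccnd2 (chromosome 6, 127125162 to 127152193, minus strand, GRCm38) had the most counts and the largest mean difference. Its level was 106, 87.6 and 109 CPM across controls 1 to 3 and 103, 213 and 240 CPM across knockouts 1 to 3. Knockouts 2 and 3 lay far above every control, whereas knockout 1 lay within the control range. The means were 101 ± 11.7 and 185 ± 72.5 CPM (SD, n = 3 each; two-sided exact permutation p = 0.3). The edgeR log2 fold change was 0.88 (SE 0.33, unadjusted p = 0.0271, adjusted p = 0.729).

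Ccnd3 (chromosome 17, 47505051 to 47599691, plus strand) encodes the D-type cyclin most prominent in maturing blood cells. It showed the same arrangement of libraries, with 52.6, 32.8 and 33.9 CPM across controls 1 to 3 and 30.4, 82.3 and 95.3 CPM across knockouts 1 to 3. Knockout 1 was below every control and the other knockouts were above every control. Its log2 fold change came to 0.80 with an SE of 0.44 (edgeR adjusted p = 0.80), and the means were 39.8 ± 11.1 and 69.4 ± 34.3 CPM (SD, n = 3 each; exact permutation p = 0.4).

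Ccnd1 (chromosome 7, 144929931 to 144939925, minus strand), the D-type cyclin most often linked to mitogen signals, was arranged differently. It had 35.7, 36.5 and 28.1 CPM across controls 1 to 3 and 51.9, 25.2 and 52.3 CPM across knockouts 1 to 3, so that knockout 2 held the lowest value of all 6 libraries. The estimated log2 fold change was 0.37 with an SE of 0.36 (edgeR adjusted p = 0.904), and the means were 33.4 ± 4.63 and 43.1 ± 15.5 CPM (SD, n = 3 each; exact permutation p = 0.4). Over the 6 libraries, log2 CPM of Ccnd2 and Ccnd3 had a Pearson r of 0.930, and Ccnd1 had an r of 0.01 with Ccnd2 and -0.03 with Ccnd3. These correlations describe 6 libraries in 2 genotypes.

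Markers of macrophages and granulocytes separated the genotypes. Their summed level was 149 to 271 CPM in the controls and 494 to 1483 CPM in knockouts, with 562, 494 and 1483 CPM across knockouts 1 to 3. All 16 of 16 were tested, all 16 had a positive log2 fold change, and none was at 0 in all libraries. Of the 16, edgeR called 0 and DESeq2 called 4, against 1.01% of all genes. In edgeR 8 were higher at an unadjusted p under 0.05, against 4.26% of all genes. Csf1r, the receptor that defines macrophages, was at 8.91, 39.1 and 22.4 CPM across controls 1 to 3 and at 75.7, 92.4 and 141 CPM across knockouts 1 to 3. Knockout 1, where Ccnd2 and Ccnd3 were not above the controls in TMM-scaled CPM, also had a marker sum above every control. Mast cell and basophil markers were at 0.0691 to 5.48 CPM in the controls and 6.42 to 18.2 CPM in knockouts, with Fcer1a and Cma1 at 0 throughout. The summed levels of erythroid, megakaryocyte, T and NK cell, B cell, hepatocyte and endothelial markers overlapped between genotypes. Cd3e, Cd3g, Cd3d, Cd2 and Il2rb were at 0 in all libraries, as was Pax5. The part of such cells in the cyclin levels was not tested, and in bulk RNA a change in cell make-up and a change in RNA per cell cannot be told apart.

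The E-type cyclins had the lowest mean CPM of the 8, without regard to length. Ccne1 (chromosome 7, 38097984 to 38107534, minus strand) had 24.2, 15.6 and 17.5 CPM across controls 1 to 3 and 17.3, 12.6 and 4.74 CPM across knockouts 1 to 3. Knockouts 2 and 3 lay below every control, and knockout 1 lay between the controls. The estimated log2 fold change was -0.73 with an SE of 0.56 (edgeR adjusted p = 0.869), from means of 19.1 ± 4.52 and 11.5 ± 6.34 CPM (SD, n = 3 each; exact permutation p = 0.2).

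Ccne2 (chromosome 4, 11191351 to 11204779, plus strand), the second gene for a cyclin E, had 14.8, 12.5 and 7.67 CPM across controls 1 to 3 and 11.1, 7.39 and 4.48 CPM across knockouts 1 to 3. Each knockout was below the control of its own litter, although the genotypes overlapped across litters. The estimated log2 fold change was -0.60 with an SE of 0.61 (edgeR adjusted p = 0.905). Both estimates leaned on knockout 3, without which they were -0.34 for Ccne1 and -0.32 for Ccne2. That library also had the lowest sum of HSC markers and the highest sum of erythroid markers. It had the fewest detected genes as well (13972, against 14674 to 17241 in the others). The part of these features in the result was not tested. Log2 CPM of Ccne1 and Ccne2 had a Pearson r of 0.888 over the 6 libraries, again a description only.

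Ccna2 (chromosome 3, 36564865 to 36572150, minus strand), whose product HSCs need in order to survive and divide, had the highest mean CPM of the 8 in controls. It had 127, 187 and 155 CPM across controls 1 to 3 and 125, 90.4 and 134 CPM across knockouts 1 to 3. Knockout 3 lay inside the control range, and the other knockouts lay below it, knockout 1 by little. The estimated log2 fold change was -0.43 with an SE of 0.25 (edgeR adjusted p = 0.824), the smallest SE of the 8, from means of 157 ± 29.99 and 116 ± 22.9 CPM (SD, n = 3 each; exact permutation p = 0.2). Without knockout 2 the estimate for Ccna2 was -0.27. Endothelial markers were at 143 CPM in knockout 2 and 1097 to 1727 CPM elsewhere, and their part in the result was not tested.

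The B-type cyclins did not share an order of libraries. Ccnb1 (chromosome 13, 100778650 to 100786570, minus strand), the main mitotic cyclin, had 51.7, 33.4 and 33.1 CPM across controls 1 to 3 and 34.8, 13.9 and 32.6 CPM across knockouts 1 to 3, with knockout 2 alone far below the controls. Ccnb2 (chromosome 9, 70407692 to 70421547, minus strand), whose product sits at the Golgi apparatus, had 45.6, 45.4 and 64.8 CPM across controls 1 to 3 and 16.3, 76.4 and 37.0 CPM across knockouts 1 to 3. Knockout 2, the lowest library for Ccnb1, was the highest for Ccnb2. The B-type log2 fold changes were -0.54 (SE 0.43) for Ccnb1 and -0.27 (SE 0.52) for Ccnb2, with edgeR adjusted p of 0.877 and 0.963. Without knockout 1 the estimate for Ccnb2 turned to 0.13, so its sign rested on that library, and without knockout 2 that for Ccnb1 was -0.22.

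**Figure D2:**
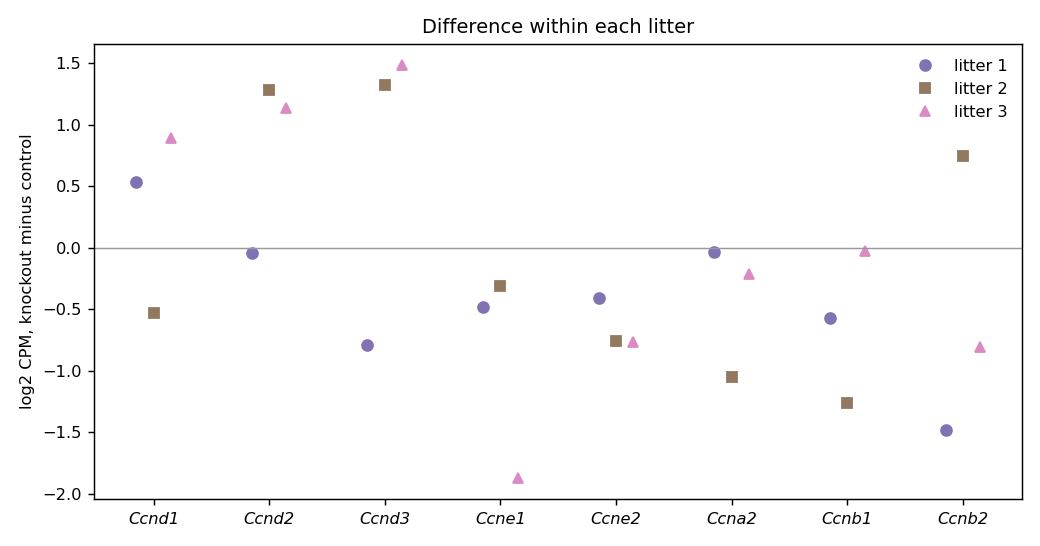
Difference in log2 CPM between the knockout and the control of each litter (vertical axis) for each cyclin (horizontal axis), with 1 symbol per litter. Ccnd3 runs from -0.79 in litter 1 to 1.49 in litter 3, and the 3 symbols of Ccne1, Ccne2, Ccna2 and Ccnb1 all lie below 0.

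Within litters, 4 of the 8 cyclins (Ccne1, Ccne2, Ccna2 and Ccnb1) were lower in the knockout of all 3, against 15.9% of all genes, and 0 of 8 were higher in all 3, against 12.3%. The count of 4 depended on the scaling of libraries. It was 3 with DESeq2-style size factors (against 15.5% of all genes) and 4 with upper-quartile scaling (against 19.4%). It became 0 when libraries were scaled by size only, against 8.54% of all genes. On that scale 1 of 8, Ccnd2, was instead higher in all 3 litters, against 17% of all genes. Scaling by size only also moved the median log2 fold change of all genes from 0.01 to 0.23. The smallest of these differences was that of Ccnb1 in litter 3, -0.03 on the log2 scale. For Ccnd2 the differences were -0.04, 1.28 and 1.135 in litters 1 to 3, and for Ccnd3 they were -0.79, 1.32 and 1.49. In TMM-scaled values the litter 1 pair thus differed from the others for these D-type cyclins. With scaling by size only, the difference in mean log2 CPM over all 3 D-type cyclins was 0.64, 0.60 and 1.16 in litters 1 to 3.

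On the log2 CPM scale the range among knockouts exceeded that among controls for all 8 cyclins, as it did for 74.8% of all genes. For Ccna2 the ranges were nearly equal, and on the CPM scale the SD of Ccna2 and Ccne2 was larger in controls. The highest knockout value was 1.48 times the lowest for Ccna2 and 4.70 times for Ccnb2, the ends of the range. In controls this ratio ran from 1.25 for Ccnd2 to 1.93 for Ccne2.

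**Figure D3:**
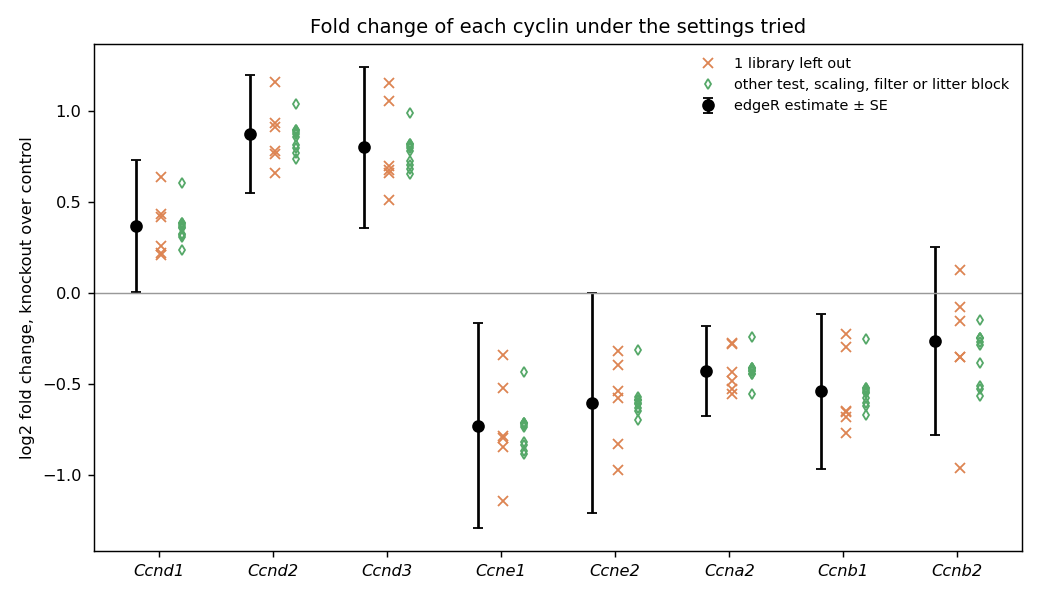
Log2 fold change of each cyclin (vertical axis; knockout over control) in the edgeR fit with its SE (black), with 1 library left out (orange crosses) and under the other tests, scalings, filters and litter blocks (green diamonds). The D-type cyclins stay above 0 and the others below it at all points except 1 for Ccnb2, at 0.13.

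By phase, mean log2 CPM over the D-type cyclins was 5.87, 5.56 and 5.56 across controls 1 to 3 and 5.77, 6.25 and 6.73 across knockouts 1 to 3. The E-type mean was 4.25, 3.81 and 3.54 in controls and 3.80, 3.28 and 2.22 in knockouts. The B-type mean was 5.603, 5.28 and 5.54 in controls and 4.58, 5.03 and 5.12 in knockouts. The B-type means of the 3 knockouts lay below those of the controls although neither gene separated alone. Knockouts 1 and 2 held opposite positions for the 2 genes, which offset each other in a mean of logs. Of all single genes, 7.74% had every knockout below every control, and the B-type share given below overlapped. The differences of these log2 means were 0.59 for the D-type, -0.77 for the E-type, -0.43 for Ccna2 and -0.57 for the B-type cyclins. Leaving out 1 library moved several of them. Without knockout 3 the D-type difference was 0.35 and the E-type difference -0.33, without knockout 2 that of Ccna2 was -0.26, and all kept their sign. With scaling by size only, the difference was 0.80 for the D-type, -0.55 for the E-type, -0.22 for Ccna2 and -0.35 for the B-type cyclins. On that scale every knockout was above every control in the D-type mean. The median log2 fold change of all genes was also 0.23 there, and the share of single genes that separated upward was not counted. The B-type mean had every knockout below every control under every scaling used. The difference within litter 1 was then positive for the E-type cyclins (0.29) and for Ccna2 (0.71). No test was made of these means.

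Levels of different genes were compared as CPM per kilobase of the longest coding transcript. In controls Ccna2 was highest at 52.8 ± 10.1 CPM per kb, followed by Ccnb2 at 33.9 ± 7.25, Ccnd3 at 18.8 ± 5.27, Ccnd2 at 15.95 ± 1.85 and Ccnb1 at 15.8 ± 4.28 (SD, n = 3 each). Ccne1 came next at 9.56 ± 2.26 CPM per kb, then Ccnd1 at 8.93 ± 1.24, and Ccne2 was last at 3.88 ± 1.21 (SD, n = 3 each). Ccnd3, Ccnd2 and Ccnb1 overlapped with each other over control libraries, as did Ccne1 and Ccnd1, while the other neighbours in this order did not overlap. In knockouts Ccna2 was at 39.3 ± 7.73, Ccnd3 at 32.8 ± 16.2, Ccnd2 at 29.3 ± 11.5 and Ccnb2 at 28.2 ± 19.98 CPM per kb (SD, n = 3 each), and these 4 overlapped. The place of Ccnd3 depends on its length, which was 2113 bases for that transcript and 8775 bases over all annotated exons. With the latter it ranked 7th in controls instead of the third.

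The D-type cyclins together made up 31.7%, 24.9% and 25.5% of the summed cyclin level per kb across controls 1 to 3, and 36.1%, 45.6% and 52.9% across knockouts 1 to 3. Every knockout was above every control in this share, which does not depend on the scaling of libraries. Among all single genes, 6.39% had every knockout above every control in TMM-scaled CPM. The grouping of members was also made with earlier results known, so the separation is a description only. With all annotated exons as the length, the share was 18.1% to 22.3% in controls and 30.1% to 41.2% in knockouts. Ccnd2 alone took 8.79% to 10.8% of the sum in controls and 13.2% to 20.7% in knockouts, also without overlap. The shares of the other D-type cyclins overlapped. That of Ccnd1 was 4.69% to 6.19% in controls and 3.87% to 11.2% in knockouts, and that of Ccnd3 9.88% to 15.4% and 11.7% to 24.6%. The shares of Ccna2, of the E-type and of the B-type cyclins overlapped as well. No test was made of these shares, since a higher share of some members lowers that of the rest.

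**Figure D4:**
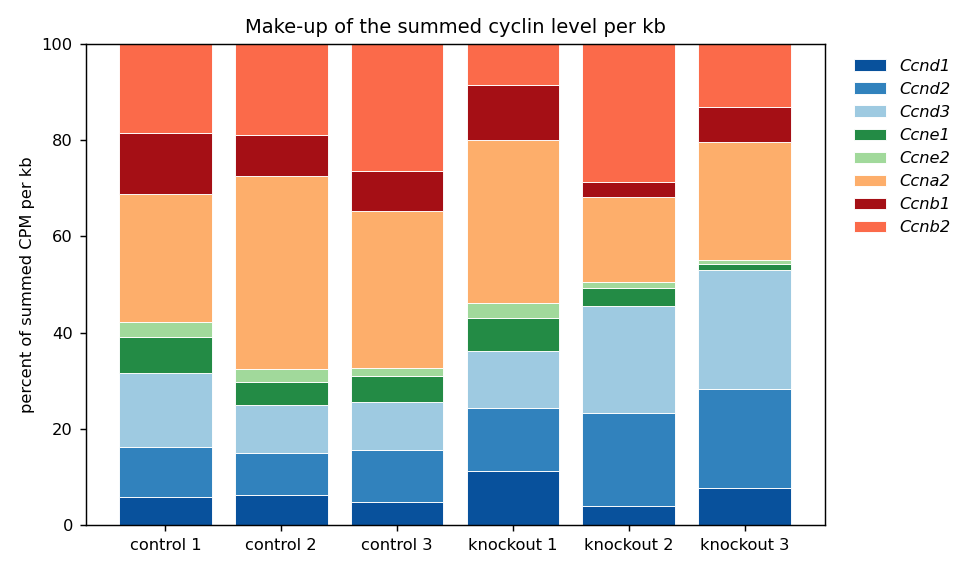
Share of each cyclin in the summed cyclin level (CPM per kb of the longest coding transcript; stacked to 100%) in each library. The 3 blue segments, the D-type cyclins, reach 24.9% to 31.7% in controls and 36.1% to 52.9% in knockouts.

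The partner kinases gave a second view of the same libraries. Cdk6, the kinase partner of D-type cyclins in blood progenitors, had 210, 196 and 219 CPM across controls 1 to 3 and 151, 103 and 165 CPM across knockouts 1 to 3, with every knockout below every control (log2 fold change -0.58, SE 0.24, edgeR adjusted p = 0.758). The log2 ratio of Ccnd2 to Cdk6 counts was -0.99, -1.16 and -1.002 in controls and -0.55, 1.05 and 0.54 in knockouts, without overlap. That of Ccnd1 to Cdk6 was -2.56, -2.42 and -2.96 in controls and -1.54, -2.03 and -1.66 in knockouts, also without overlap. The ratio of Ccnd3 to Cdk6 overlapped, at -1.998, -2.57 and -2.69 in controls and -2.31, -0.32 and -0.79 in knockouts, as did the ratios of all 3 D-type cyclins to Cdk4. Every other ratio examined, between cyclins or to a kinase, overlapped too. Those without overlap were only the ratios of Ccnd1 and of Ccnd2 to Cdk6, which separated by itself in TMM-scaled CPM. For comparison, 6.39% of all single genes had every knockout above every control in TMM-scaled CPM, and 7.74% had every knockout below. A few ratios without overlap among those examined are therefore a description only. No ratio was tested. Cdk4, the other partner, overlapped between genotypes, at 91.8 ± 21.3 against 84.9 ± 20.1 CPM (SD, n = 3 each; log2 fold change -0.11, edgeR adjusted p = 0.969).

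Cdk2, the partner of cyclins E and A, had 21.7, 11.8 and 13.8 CPM across controls 1 to 3 and 9.18, 35.4 and 40.7 CPM across knockouts 1 to 3 (log2 fold change 0.85, SE 0.58, edgeR adjusted p = 0.861). Its libraries were ordered much as those of Ccnd3, and Cdk2 was the gene second most alike to Ccnd3 by Pearson r of log2 CPM over the 6 libraries (0.988). The log2 ratio of Ccne1 to Cdk2 counts was 0.16, 0.40 and 0.34 in controls and 0.91, -1.49 and -3.10 in knockouts. Cdk1, the mitotic kinase, had 28.8 ± 5.40 CPM in the controls and 21.5 ± 3.22 CPM in the knockouts (SD, n = 3 each; log2 fold change -0.43, edgeR adjusted p = 0.880). The mean log2 ratio of Ccna2 to Cdk1 counts was 2.44 ± 0.56 in the controls and 2.43 ± 0.43 in the knockouts (SD, n = 3 each), so it moved by less than the spread between replicates.

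Among about 4570 genes with a mean of at least 20 CPM, those most alike to each cyclin over the 6 libraries were Ergic1 and Ranbp17 for Ccnd1 (r = 0.997 and 0.988), Sqstm1 and Hiat1 for Ccnd2 (0.998 and 0.993), and Tuba4a before Cdk2 for Ccnd3 (0.992). They were Mynn and Tlk2 for Ccne1 (0.997 and 0.995), Clk1 and Itpkb for Ccne2 (0.993 and 0.982), and Sh2d3c and Ifngr1 for Ccna2 (0.965 and 0.958). For the B-type cyclins they were Asb7 and Prpf38b for Ccnb1 (0.969 and 0.963) and Ptbp1 and Atxn7l3 for Ccnb2 (0.988 and 0.987). No cyclin appeared in the pair of another. Each pair was picked as the highest of about 4570 correlations over only 6 libraries. High r values can arise from that selection alone, so the pairs are a description only.

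In the rest of the pathway edgeR again called 0 genes. DESeq2, which called 1.01% of all genes, called Cdkn1a and Ccng1. The lists, none tested as a list, are given by their signs. At an unadjusted p under 0.05 in edgeR, 4.26% of all genes were higher and 2.24% lower, and the counts of each list are read beside these shares. Scaling libraries by size only raised the number of positive values over all 13646 genes from 6927 to 8607. Of 9 inhibitors of cyclin-CDK activity 7 were tested, 4 with positive and 3 with negative log2 fold changes (5 and 2 when scaled by size only, 2 and 5 with the litter block), and 1 was higher at an unadjusted p under 0.05. Cdkn1a, which encodes p21, had 1.93, 2.995 and 1.45 CPM across controls 1 to 3 and 33.5, 92.5 and 164 CPM across knockouts 1 to 3 (log2 fold change 5.51, SE 0.67, edgeR adjusted p = 0.452; DESeq2 adjusted p = 2.28e-18). Knockout 1 held the lowest Cdkn1a value among the knockouts, as it did for Ccnd2 and Ccnd3. Cdkn1c, the gene of p57, had 14.8 ± 4.70 CPM in the controls and 27.2 ± 13.2 CPM in the knockouts (SD, n = 3 each; edgeR adjusted p = 0.824).

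Of the 21 genes of cyclin destruction, all tested, 9 had positive and 12 negative log2 fold changes (13 and 8 when scaled by size only, 11 and 10 without control 1), and 3 had an unadjusted p under 0.05, 1 of them higher. Cdc20, which directs the anaphase-promoting complex to cyclin B, had 35.4, 24.9 and 32.6 CPM across controls 1 to 3 and 8.35, 13.9 and 4.03 CPM across knockouts 1 to 3 (log2 fold change -1.82, SE 0.52, edgeR adjusted p = 0.668; DESeq2 adjusted p = 0.0810). Every knockout was below every control. Ambra1, a substrate receptor in the destruction of D-type cyclins, had 31.8 ± 7.23 CPM in the controls and 54.6 ± 0.481 CPM in the knockouts (SD, n = 3 each; edgeR adjusted p = 0.729), again without overlap. Of the 11 partner kinases and activators, 10 had negative log2 fold changes, against 6 when libraries were scaled by size only.

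The E2F and pocket protein list had 4 positive and 9 negative log2 fold changes among 13 tested, and 8 and 5 with scaling by size only. The counts were 7 and 6 without control 1 or without knockout 2. At an unadjusted p under 0.05, 2 were higher and 1 lower. Rb1, the retinoblastoma protein gene, had 48.7, 56.4 and 47.6 CPM across controls 1 to 3 and 49.99, 87.4 and 195 CPM across knockouts 1 to 3 (edgeR adjusted p = 0.758). In TMM-scaled CPM knockout 1 lay at the control level, as for Ccnd2. Tfdp1, the dimer partner of E2F proteins, had 52.7 ± 6.72 CPM in the controls and 33.9 ± 3.81 CPM in the knockouts (SD, n = 3 each; edgeR adjusted p = 0.762). The 15 upstream regulators of D-type cyclins had a median log2 fold change of 0.23, with 10 positive (14 when scaled by size only, 8 with the litter block) and 1 higher at an unadjusted p under 0.05. The median was 0.08 without knockout 3, 0.09 without knockout 2, 0.08 with upper-quartile scaling and -0.03 with limma-voom, where 7 were positive and 8 negative. Stat3, a transducer of cytokine signals, had 48.0 ± 10.3 and 101 ± 54.7 CPM, and Myc, a growth regulator, 200.4 ± 18.7 and 284 ± 69.9 CPM, in controls and knockouts (SD, n = 3 each; edgeR adjusted p = 0.733 and 0.775).

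Among S phase genes 27 of 28 were tested, with 6 positive and 21 negative log2 fold changes and a median of -0.31, against 0.01 for all genes. With scaling by size only the medians were -0.15 and 0.23, with 12 positive and 15 negative, and with upper-quartile scaling 2 were positive and 25 negative. Without knockout 3 the median was -0.05. At an unadjusted p under 0.05, 4 were lower and 0 higher. Mcm6, a subunit of the replicative helicase, had 197 ± 6.87 CPM in the controls and 129 ± 16.8 CPM in knockouts, and Rrm1, of ribonucleotide reductase, 275 ± 20.3 and 166 ± 46.9 CPM (SD, n = 3 each; edgeR adjusted p = 0.709 and 0.721). Among 29 G2 and M phase genes 6 were positive and 23 negative, with a median of -0.31 (-0.14 when scaled by size only, -0.18 without control 3) and again 4 lower and 0 higher at an unadjusted p under 0.05. Bub1b, a spindle checkpoint kinase, had 101 ± 8.87 and 67.3 ± 3.62 CPM and Hmmr, a spindle protein, 91.7 ± 20.5 and 54.97 ± 9.56 CPM in the controls and knockouts (SD, n = 3 each; edgeR adjusted p = 0.729 for both). The 8 cyclins themselves had a median of -0.35 (-0.20 when scaled by size only). Without knockout 1 it was -0.18, with 4 positive and 4 negative.

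**Figure D5:**
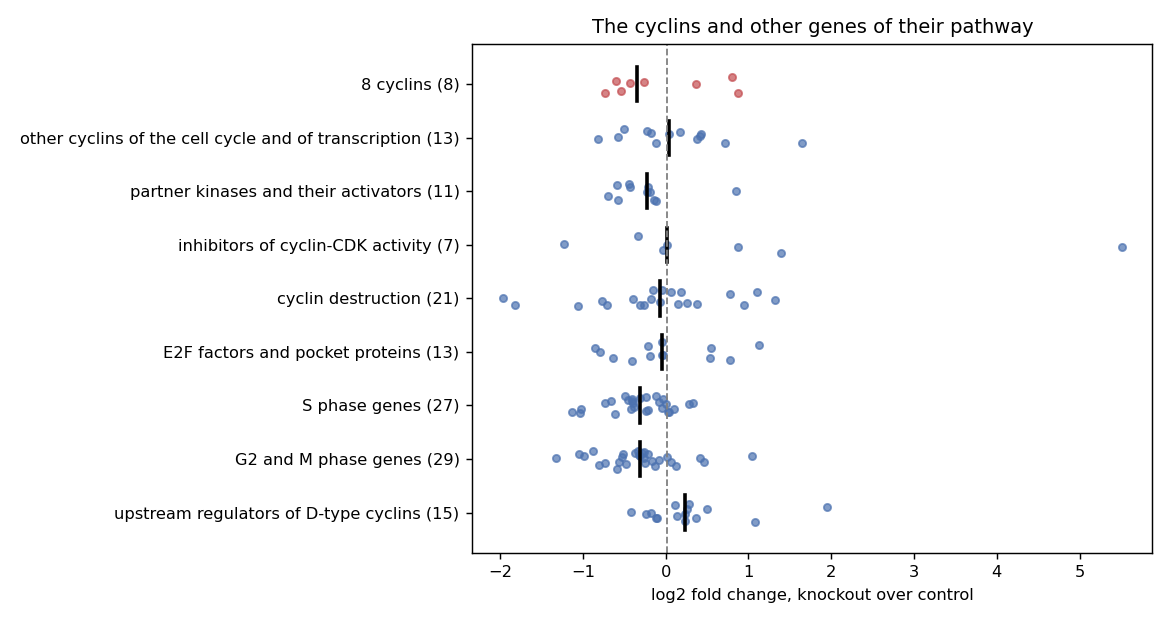
Log2 fold change, knockout over control (horizontal axis), of the 8 cyclins (red) and of the tested genes of 8 pathway lists (blue), with the number tested in brackets. Black bars are list medians and the dashed line is the median of all genes, 0.01; Cdkn1a is the point at 5.51.

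Of 15 other cyclins 13 were tested, 7 with positive and 6 with negative log2 fold changes (9 and 4 when scaled by size only, 5 and 8 with the litter block). At an unadjusted p under 0.05, 2 were higher and 1 lower. Ccng1, a target of p53 that regulates its feedback, had 80.4 ± 8.63 CPM in the controls and 252 ± 103 CPM in the knockouts (SD, n = 3 each; log2 fold change 1.65, edgeR adjusted p = 0.571; DESeq2 adjusted p = 0.000777). Ccny, a cyclin of the cell membrane, had 72.9 ± 3.62 and 120 ± 47.7 CPM (SD, n = 3 each; edgeR adjusted p = 0.761). The germ cell cyclin Ccna1 had 5 counts in control 3 and 0 in the other libraries, and Ccnb3 had 39 counts in knockout 1 and 0 elsewhere.

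Several members share exonic bases with a gene on the opposite strand in GENCODE M21, namely 1100 bases of Ccnd1 with LTO1, 361 of Ccnd3 with Bysl, 609 of Ccne2 with Ints8, 510 of Ccna2 with Exosc9, and 372 and 368 of Ccnd2 with the antisense genes Gm43126 and 9330179D12Rik. The strand setting of the counting is not given in the sources used here, so reads in those bases may be missing from a member or belong to its neighbour. Bysl had 2872 counts in knockout 2, where Ccnd3 had 2988, against 427 to 994 in the other libraries. Ccnb2 and Ccnd3 also have a processed copy with its own counts, at most 47 for Ccnb2-ps and 60 for Ccnd3-ps, and reads that match a gene and its copy equally would be in neither.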

How the data were processed

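RNA from sorted fetal liver HSCs was sequenced in 3 control and 3 Dpy30 knockout libraries, grouped by the genotype label and numbered by litter. For each library the authors deposited raw counts, whole numbers by gene symbol. The submitters' processing notes name CASAVA 1.8.4, TopHat2, Picard 1.126, HTSeq 0.6.0, DESeq 3.0, bedtools 2.17.0 and the build mm10, with no role or order. The 5 closing tallies, 41.0% to 51.0% of reads, name no gene and were left out; 13.4% to 18.3% of reads had more than 1 alignment.

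Genes were filtered with filterByExpr, which left 13646 of 38926, scaled by TMM (trimmed means of M values) and tested with edgeR 4.0.16 (quasi-likelihood, R 4.3.3) for knockout against control across all genes. P-values were adjusted by Benjamini and Hochberg's method and called under 0.05. Each SE is the size of the estimate divided by the square root of its F statistic. CPM uses TMM-scaled library sizes, and log2 CPM a prior count of 2. The fits were also run on simulated counts with a smaller spread between replicates than here. In these data the common biological coefficient of variation, a relative spread between replicates, was 0.817. That run therefore does not measure power or error at the spread of these data. For single values a two-sided exact permutation test over the samples was used, whose smallest possible p is 0.1. DESeq2 1.42.0, limma-voom (limma 3.58.1), 3 other scalings, 2 other filters, removal of mitochondrial genes, a litter block and leaving out each library were alternatives. DESeq2 with the litter block and shares per length of all annotated exons were added after the data were seen.

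The labels say that a number marks a shared litter, so the numbers pair the samples. Deviations from the genotype means correlated at -0.0224, -0.0752 and 0.00336 in litters 1 to 3. The block changed no call among the cyclins.

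Named genes were the cyclins, Dpy30, Cdk1, Cdk2, Cdk4, Cdk6, the 2 genes per pathway list with the smallest unadjusted p and at least 5 CPM in a genotype, and the 2 most alike to each cyclin; Csf1r, Ccna1, Ccnb3 and the overlapping genes were named after their values were seen. The members and lists were chosen with earlier results of these data known. Positions and lengths are from GENCODE M21 (GRCm38), and 1 listed marker was matched by its older symbol, Emr1.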

Additional observations from a re-analysis of the deposited data

Results flagged for a closer look

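Reads that fell on more than 1 gene were tallied as ambiguous and given to none, which can touch members that share exons with a neighbour. They made up 0.780%, 0.859% and 0.885% of reads across controls 1 to 3, against 0.907%, 0.919% and 0.913% across knockouts 1 to 3. The tally was looked at again because the level of every knockout was above that of every control, in data outside the comparisons. The means were 0.842% ± 0.0551 and 0.913% ± 0.00591 (SD, n = 3 each; two-sided exact permutation p = 0.1, the smallest possible).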

How the results depend on the processing

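The count of genes past the threshold, 0 in the edgeR fit, was 0 with the replicate block (619 at an unadjusted p under 0.05) and 0 to 0 with 1 replicate left out. It was 138 with DESeq2, 277 with DESeq2 and the replicate block (added after the data were seen), and 1 each without a filter on low counts and with at least 10 counts in every sample; the cause was not tested. Members past the threshold stayed at 0, and 0 to 0 with 1 replicate left out. Of 128 fold changes of the cyclins under 16 alternatives each, 127 kept their sign and side of the threshold, with a smallest adjusted p of 0.278 (DESeq2 with the block, Ccnd2); Ccnb2 reversed to 0.13 without knockout replicate 1, and ran from -0.96 to 0.13 with 1 library left out. The other ranges with 1 library left out were 0.21 to 0.64 for Ccnd1, 0.66 to 1.16 for Ccnd2, 0.51 to 1.16 for Ccnd3, -1.14 to -0.34 for Ccne1, -0.97 to -0.32 for Ccne2, -0.56 to -0.27 for Ccna2 and -0.77 to -0.22 for Ccnb1. With the block the fold changes of Ccnd2 and Ccnb2 were 0.80 and -0.53. All 36 differences by phase under other scalings or with 1 library left out kept their sign. With 1 library left out they ran from 0.35 to 0.83 for the D-type, -1.12 to -0.33 for the E-type, -0.57 to -0.26 for Ccna2 and -0.67 to -0.40 for the B-type cyclins. The cyclins had 157 to 8404 counts per library.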
